A study of Caenorhabditis elegans with 2 samples.

Results

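The regions described here are the SNPC-1.1 binding peaks at promoters of protein-coding genes that have no small RNA gene beside them. A peak was included when its summit, the point of highest signal, lay within 500 bp of the annotated 5′ end (start) of a nuclear protein-coding gene and of no tRNA, snRNA or snoRNA start. Peaks within 500 bp of a ribosomal protein gene (symbols rpl-* and rps-*) were left out. The rule kept 522 of the 1500 reproducible peaks (34.8%, exact 95% binomial interval 32.4 to 37.3%). Of these, 163 lay by a divergent pair of starts (genes on opposite strands that point away from each other, both starts within 500 bp of the summit), 356 by a single start and 3 by a pair whose genes run towards each other.

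The study was a chromatin immunoprecipitation sequencing (ChIP-seq) experiment on whole young adult Caenorhabditis elegans hermaphrodites of strain YL482. This transgenic line carries SNPC-1.1 (C06A8.2) with GFP and FLAG at its C terminus, and the antibody recognised GFP. Both samples are biological replicates of this 1 group, each with the tag, and their age beyond the stage is not given. A worm of this stage contains a large germ line beside its somatic tissues, and a peak cannot be assigned to either from these files.

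SNPC-1.1 is a worm relative of a subunit of SNAPc, the small nuclear RNA activating protein complex. In animals SNAPc binds a short element upstream of snRNA genes and recruits RNA polymerase II or III there. In the compact worm genome, adjacent genes can share 1 intergenic stretch from which both are transcribed outwards. The X chromosome of worms carries few germline-expressed genes.

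The sequence at some of the summits is shown first. The windows were picked after their words had been seen, to show those words, from 17 of the 24 leading peaks. Each line below is the 101-base window centred on the summit of 1 of the 12 highest divergent or 12 highest single peaks, on the plus strand of ce11. Capitals mark 8-base words that recurred at these promoters (GCGAGACC, GTACGGTA and GGTACGGT, GCGCGAAA and CGCGCGAA, AAAGGCGC and AAGGCGCA, GCAAACAC, GCGCTCCA, CGCCAGCA and GACGCAGA, on either strand) or words that recurred at peaks far from any start (CGGCCGAC and GGCCGACA, GCGGAACC and CGGAACCC). Divergent pairs come first. The genes bmk-1 and coh-3 encode a mitotic kinesin and a meiotic cohesin subunit, rec-8 another meiotic cohesin subunit, mex-5 a polarity protein of the embryo, rpn-9 a proteasome subunit and ndub-8 a subunit of respiratory complex I.
bmk-1 and coh-3, divergent, chrV:14457215-14457315: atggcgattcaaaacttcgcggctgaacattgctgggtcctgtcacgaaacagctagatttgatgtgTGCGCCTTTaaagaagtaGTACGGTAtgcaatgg
rec-8 and mex-5, divergent, chrIV:13353365-13353465: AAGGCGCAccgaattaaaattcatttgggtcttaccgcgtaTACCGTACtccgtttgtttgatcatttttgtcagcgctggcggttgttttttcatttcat
rpn-9 and T06D8.9, divergent, chrII:11239100-11239200: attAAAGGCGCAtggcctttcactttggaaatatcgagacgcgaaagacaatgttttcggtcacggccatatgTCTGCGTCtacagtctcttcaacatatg
cup-14 and ndub-8, divergent, chrII:13872634-13872734: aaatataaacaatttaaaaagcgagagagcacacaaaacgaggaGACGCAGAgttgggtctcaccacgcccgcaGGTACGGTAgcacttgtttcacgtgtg
efl-1, single, chrV:16965813-16965913: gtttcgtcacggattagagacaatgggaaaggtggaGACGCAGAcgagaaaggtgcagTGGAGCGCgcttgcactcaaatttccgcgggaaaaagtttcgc
cdc-48.1, single, chrII:10563519-10563619: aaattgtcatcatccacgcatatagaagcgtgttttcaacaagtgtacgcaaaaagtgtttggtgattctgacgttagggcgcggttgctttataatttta
cyp-13A2, single, chrII:9787909-9788009: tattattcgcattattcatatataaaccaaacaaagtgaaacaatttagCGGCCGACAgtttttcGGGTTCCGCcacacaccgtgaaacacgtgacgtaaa
cox-5A, single, chrIII:12905151-12905251: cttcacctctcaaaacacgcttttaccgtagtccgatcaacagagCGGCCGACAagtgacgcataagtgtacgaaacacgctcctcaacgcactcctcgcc

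The single promoters shown belong to efl-1, the worm E2F transcription factor, cdc-48.1, an ATPase that unfolds ubiquitinated proteins, cyp-13A2, a cytochrome P450, and cox-5A, a subunit of cytochrome c oxidase. The 4 divergent windows and efl-1 each held a pair of promoter words, cyp-13A2 held both far-peak words side by side, cox-5A held only the first of them and cdc-48.1 held neither kind. They are not a sample of the peaks: of the 24 highest divergent and single windows 10 held a promoter word, and 9 held none of the words in capitals, among them those of algn-13 with R10D12.13, gpr-2 with rgr-1 and C17G10.10. Of all 522 windows 55 (10.5%) held 2 or more groups of promoter words, 27 of 163 divergent ones (16.6%) and 28 of 356 single ones (7.87%). All 8 windows were unique in the genome, in that each 36-base stretch occurred once.

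By signal, a deposited value per peak whose scale no source gives, these promoter peaks were mostly weak. Their median signal was 77.1 (58.8 to 1506.6), against 90.9 for the other 951 nuclear peaks. Only 26 of the 522 (4.98%) were among the 250 highest peaks of the whole list, against 202 of the 951 (21.2%). Those 951 included 420 peaks at tRNA, snRNA or snoRNA starts, with a median of 103 and 128 (30.5%) among the 250 highest. They also included 397 peaks with no start within 500 bp, which were closer to the promoter peaks, with a median of 81.7 and 46 (11.6%) among the 250 highest. Divergent and single peaks had nearly the same median signal, 76.6 and 77.1, but the highest divergent peak reached 341 where the highest single peak reached 1506.6. Down the reproducible list, promoter peaks made up 10.4% of the 250 highest peaks (6.91 to 14.9%) and 45.6% of the 250 lowest (39.3 to 52%). Continuing down the 30000 pooled regions, the divergent share of promoter regions was 31.2% among the 1500 highest, 19.6% at ranks 1501 to 3000, 14.1% at ranks 3001 to 6000 and 4.24% at ranks 21001 to 30000.

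**Figure D1:**
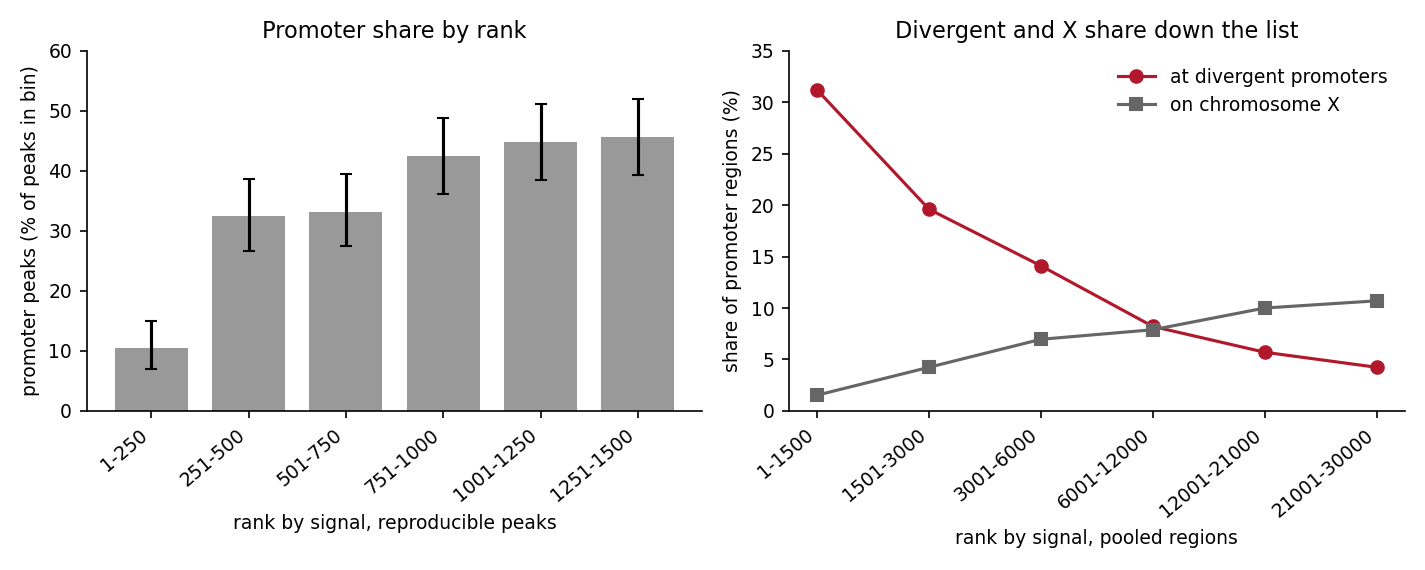
Left, protein-coding promoter peaks as a percentage of the peaks in each bin of 250 ranks of the reproducible list, with exact 95% binomial intervals; right, the share of promoter regions at divergent pairs (circles) and on chromosome X (squares) in 6 rank ranges of the pooled list. The promoter share was 10.4% in the highest bin and 45.6% in the lowest, and down the pooled list the divergent share was 31.2% at the top and 4.24% at the end, where the X share was 1.53% at the top and 10.7% at the end.

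The highest single peaks differed from the rest in shape. Of the 522 peaks, 511 had the list's common width of 320 bp, and 11 were narrower, with a median signal of 368 against 76.6 for the others. Of the 11 narrow peaks 10 were at single promoters. C17G10.10 had the highest signal of all, 1506.6, with 628 in replicate 1 and 895 in replicate 2, and the annotated noncoding gene C17G10.14 starts within 500 bp of the same summit. The second, F14H8.8, had 1025.6 over both replicates, 411 in replicate 1 and 640 in replicate 2. The third, pcrg-1, had 711 over both, 292 in replicate 1 and 432 in replicate 2, and has mrpr-1 within 500 bp, which encodes the RNA of RNase MRP and belongs to none of the 3 excluded classes. These 3 ranked 27, 50 and 74 in the whole list and between 26 and 78 in each replicate. Across all 522, 65 peaks (12.5%) also had a noncoding start of another class within 500 bp, most often ncRNA (41 peaks) or piRNA (14), and the share was alike at divergent promoters (11.7%) and single ones (12.9%). At such peaks the protein-coding and the noncoding start cannot be told apart as the one bound.

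Among the other highest single peaks were cyp-13A2 (signal 492, with 191 in replicate 1 and 299 in replicate 2), cox-5A (339, with 124 and 222 in replicates 1 and 2) and efl-1 (223, with 72.0 and 154). W01D2.3, T05F1.4, tmem-258, B0261.9 and taf-11.2, named for a subunit of the general transcription factor TFIID, completed the 12 highest, with cdc-48.1 at 239 (108 in replicate 1 and 152 in replicate 2). Both replicates ranked each of these among their own 245 highest regions. The highest divergent peak lay between syp-3, which encodes a protein of the synaptonemal complex that holds paired meiotic chromosomes together, and F39H2.3, with a signal of 341 (122 in replicate 1, 216 in replicate 2). This pair carried a second, overlapping peak with a signal of 91.5. The pair bmk-1 and coh-3 followed at 249 (98 in replicate 1 and 156 in replicate 2), then the core histone genes his-67 and his-68 at 221 (95.4 and 140), and sup-35, a maternal toxin gene, with Y48A6C.4 at 186 (61.6 and 129). Lower divergent peaks joined rpn-9 and T06D8.9 (174), rec-8 and mex-5 (158), algn-13, named for a protein glycosylation enzyme, and R10D12.13 (158), and exos-3, a subunit of the RNA exosome, and the neuropeptide-like gene nlp-4 (154). The last 4 of the 12 were lin-53, a histone-binding chromatin protein, with nra-2 (153), pdtf-1 with T26A8.4 (146), gpr-2, a regulator of spindle position, with rgr-1, a Mediator subunit (145), and ndub-8 with cup-14 (135). The nlp-4 and exos-3 peak was the least alike between replicates among these 12, at rank 794 in replicate 1 and rank 243 in replicate 2.

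The replicates differed on many of these peaks. Of the 522, 369 (70.7%) overlapped 1 of the 1500 highest regions of replicate 1 and 421 (80.7%) 1 of the 1500 highest of replicate 2. Both held for 286 (54.8%, 50.4 to 59.1%), against 74.3% (69.8 to 78.4%) of the peaks at small RNA starts and 61.7% (56.7 to 66.5%) of the peaks with no start within 500 bp, whose interval overlaps that of the promoter peaks. Across peaks, the Spearman correlation of the signal in the replicates was 0.31 over the 520 promoter peaks with a region in both. It was 0.78 over 416 small RNA peaks and 0.58 over 394 peaks with no start. These values are a description only, since the peaks share their libraries. The spread of signal also differed between the groups. Its lower and upper quartiles were 66.6 and 98.1 at promoter peaks, 76.6 and 260 at small RNA starts and 67.2 and 111 at peaks with no start. The part of this spread in the correlations was not tested. Divergent and single promoters were much alike here, at 55.8% (47.9 to 63.6%) and 54.2% (48.9 to 59.5%). Applied to the 1500 highest regions of each replicate alone, the rule found 496 promoter regions in replicate 1 and 525 in replicate 2. They lay at 625 and 692 genes, of which 477 (76.3% of the replicate 1 genes, 69.3% of the reproducible set's genes) and 557 (80.5% and 81.0%) were also genes of the reproducible set.

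**Figure D2:**
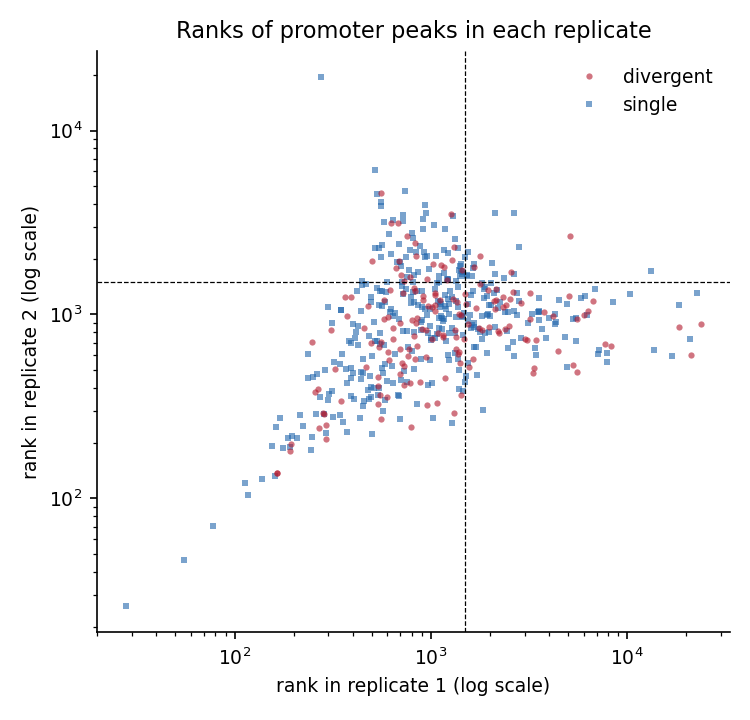
Rank of each promoter peak in replicate 1 (horizontal) and replicate 2 (vertical), both on log scales, for divergent (circles) and single (squares) promoters; dashed lines mark rank 1500. The peaks of highest rank lie close to the diagonal, the bulk scatters around rank 1000 in both, and 286 of the 522 fall within the 1500 highest of both replicates.

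Summits lay upstream of the genes. Measured to the nearest start, the median summit was 168 bp upstream, and 451 of the 522 (86.4%, 83.2 to 89.2%) were upstream rather than inside the gene. Divergent summits were closer, with a median of 136 bp upstream and 93.3% upstream (88.2 to 96.6%), against 183 bp and 83.1% (78.8 to 86.9%) at single promoters, where only 1 start was available to be near. Intergenic sequence held 145 of the 163 divergent summits (89%) and 262 of the 356 single ones (73.6%), and introns held 1 and 46. At divergent promoters 152 of the 163 summits fell between both starts, and 84 (51.5%) in the central stretch when the gap was divided into 3 equal ones. This placement was partly fixed by the rule, since both starts had to lie within 500 bp of the summit. In the 53 pairs with a gap above 500 bp the summit could only lie between the starts, and in the widest gaps only in the central stretch. The upstream share at divergent promoters was raised in the same way, by an amount that was not tested. The gaps had a median of 379 bp and ran from 9 to 905 bp. The 4 peaks nearest the distance limit on the inside were at CD4.8 (497 bp), lips-13 and gly-9 (498 bp each) and pgl-3 (500 bp), and the 4 nearest on the outside were at srg-61 (505 bp), K12H4.5 (516 bp), uda-1 (518 bp) and sdz-14 (522 bp).

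**Figure D3:**
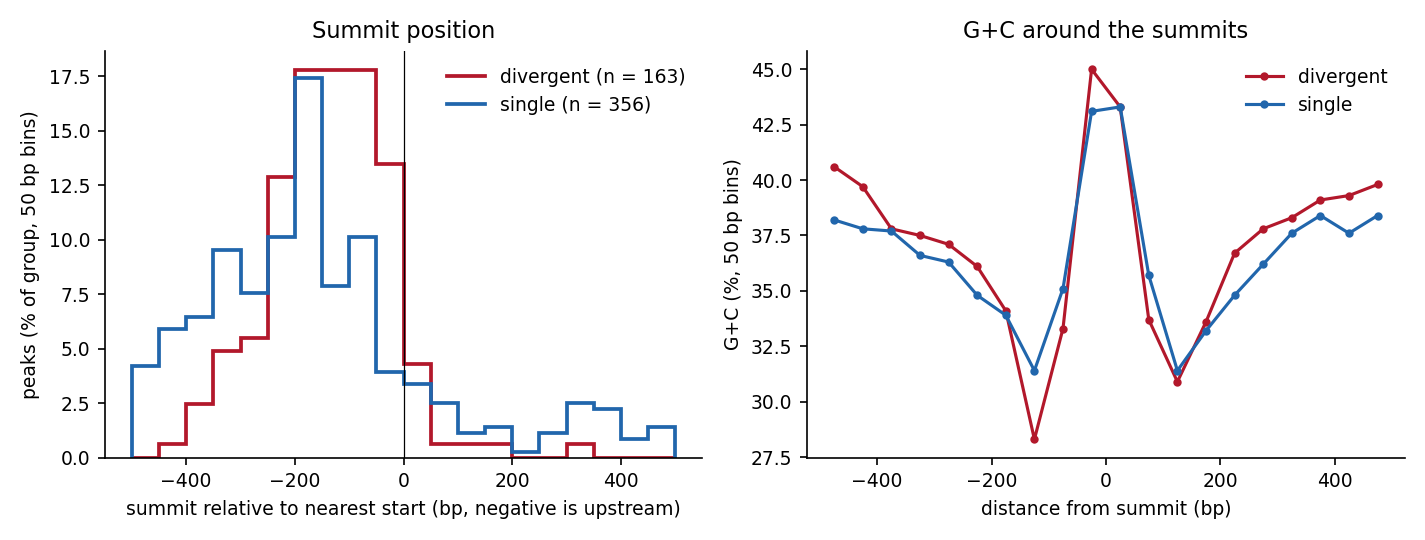
Left, position of the summit relative to the nearest protein-coding start in 50 bp bins, as a percentage of the divergent and the single promoter peaks; right, G+C content in 50 bp bins around the summits. Divergent summits gather within 250 bp upstream of a start, single ones spread farther, and in both groups a central G+C peak (45% for divergent and 43.1% for single in the 50 bp before the summit) stands between troughs of 28.3% and 31.4% about 125 bp before it.

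Seen from the genes, a divergent neighbour went with a higher share of bound promoters. Among nuclear protein-coding genes 688 of 19973 (3.44%) had a promoter peak of this set within 500 bp. On the autosomes, 228 of 1770 starts with a divergent start within 500 bp had such a peak (12.9%, 11.4 to 14.5%), against 310 of 13864 starts with no divergent start within 1000 bp (2.24%, 2 to 2.5%). In replicate 1 alone the shares were 10.4% and 2.31%, and in replicate 2 alone 12.8% and 2.28%, so the difference was much larger than that between replicates. Both genes of a pair count for the same peak in this share, so a start can be counted for a peak nearer to its divergent neighbour. This raises the share of such starts by construction, by an amount that was not tested. Counted as pairs, 114 of 878 autosomal pairs with starts at most 500 bp apart had a peak (13.0%, 10.8 to 15.4%). A pair likewise offers both of its starts to a peak. By the gap between starts the share was 13.2% at 1 to 100 bp, 8.47% at 101 to 200 bp, 13.0% at 201 to 300 bp, 19.1% at 301 to 400 bp, 10.8% at 401 to 500 bp, 12.3% above 500 and up to 750 bp and 9.64% at 751 to 1000 bp, and the intervals of neighbouring ranges overlapped. Among starts with no divergent neighbour, a gene on the same strand ending within 500 bp upstream, as in worm operons and tight clusters, went with a share of 3.48% (2.88 to 4.16%), against 1.85% (1.60 to 2.12%) for those without one.

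The X chromosome was nearly empty of these peaks. It held 8 of the 522 (1.53%, 0.664 to 3%), all at single promoters, against 188 of the other 951 nuclear peaks (19.8%, 17.3 to 22.4%). Those other peaks were not alike. X held 118 of 420 peaks at small RNA starts (28.1%), 63 of 397 with no start (15.9%) and 7 of 85 at other noncoding starts (8.24%). It held 0 of 49 at ribosomal protein genes (upper bound 7.25%), so a low X share is not particular to the promoter peaks described here. The X share moved with the distance allowed: within 200 bp it was 0 of 295 peaks (upper bound 1.24%), and within 1000 bp 20 of 621 (3.22%). As a share of genes, 8 of 2731 X-linked genes (0.293%, 0.127 to 0.576%) had such a peak, against 680 of 17242 autosomal genes (3.94%, 3.66 to 4.25%). Each replicate alone gave 11 X-linked genes (0.403%), against 614 autosomal genes (3.56%) in replicate 1 and 681 (3.95%) in replicate 2. The X-linked peaks lay near the starts of jbts-14 (signal 213, with 87.9 in replicate 1 and 127 in replicate 2), unc-2, a calcium channel subunit of neurons (145, with 75.4 and 70.9), F54G2.1 (136, with 58.7 and 79.2), pkhm-2, serp-1.1, acl-1, epn-1 and ZK816.3, the last 5 between 62.6 and 78.5. In the 3 strongest the window held at least 2 of the far-peak words described below. Among autosomes the share of genes ran from 2.70% on V (2.27 to 3.19%) to 5.72% on III (4.86 to 6.67%). None of the 78 X-linked starts with a divergent start within 500 bp had a peak (exact upper bound 4.62%).

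Genes of basic cell machinery and of the germ line had such a peak more often than protein-coding genes as a whole. The 9 lists of housekeeping complexes were translation factors, tRNA synthetases, mitochondrial ribosome, proteasome, chaperonin, respiratory chain with ATP synthase, splicing factors, RNA polymerase subunits and nuclear pore. In these 9 lists 71 of 360 genes had a promoter peak (19.7%, 15.7 to 24.2%). In 5 lists of germline, oocyte and cell division genes 60 of 300 did (20%, 15.6 to 25%). The share over all protein-coding genes was 3.44%. In 5 lists of somatic tissue and sperm genes, 9 of 1611 genes had one (0.559%, 0.256 to 1.06%). The neuronal list among these did not cover every chemoreceptor gene, and some outside it had a peak, as given below. Replicate 1 alone gave 14.7%, 18% and 0.435% for these 3 sets, and replicate 2 alone 18.1%, 18.3% and 0.559%. The shares depended on the peaks allowed: with summits within 200 bp they were 11.9%, 11.3% and 0.248%, against 1.74% of all genes, and with the 750 highest peaks 6.11%, 9.67% and 0.186%, against 1.24%. The lists were joined into these sets after the count of each had been seen, and the vacuolar ATPase (1 of 21 genes) was left out of the housekeeping set. With it, the share was 72 of 381 (18.9%, 15.1 to 23.2%). The remaining genes were more numerous, since 512 of the 688 were in none of the 25 lists. The lists were drawn up with earlier results of these data known, so they are no independent evidence of a direction.

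The proteasome, which degrades ubiquitinated proteins, had a peak at 11 of 31 genes (35.5%, 19.2 to 54.6%), 9 of them at divergent peaks. Although this share was the highest of the 25, its place did not hold. In replicate 1 alone it was 25.8%, below oocyte genes (32%) and RNA polymerase subunits (40.9%). Among the 750 highest peaks it was 16.1%, against 22% for oocyte genes, and without peaks at other noncoding starts 25.8%, against 28%. The proteasome genes were the lid, base and core subunits rpn-9 (signal 174), pas-4 (97.6), rpn-3 (97) and rpn-2 (87.4), followed by rpt-1, pas-6, pbs-7, rpt-6, pbs-1, pas-7 and rpn-5. Oocyte and early embryo genes had 16 of 50 (32%, 19.5 to 46.7%), led by mex-5 (158), the RNA-binding repressors puf-5 (134) and puf-3 (123) and the eggshell gene perm-1 (119). The chaperonin, which folds actin and tubulin, had 4 of 14, led by cct-8 (116). Translation factors had 11 of 40, led by eif-3.C (127) and ife-3 (119), nuclear pore and import genes 11 of 40, led by ran-1 (89.7), and RNA polymerase subunits 6 of 22, led by rpb-11 (114) and rpac-19 (108).

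Among genes of the dividing germ line, DNA replication had 8 of 38, led by the sliding clamp pcn-1 (118) and the helicase subunit mcm-2 (111). Meiosis genes had 10 of 53, led by syp-3, coh-3 and rec-8. Splicing factors had 11 of 63, among which snr-3 with rsp-5 and rsp-2 with rsp-1 each shared 1 divergent peak. Cell division had 14 of 84, led by the centrosome genes spd-2 (134) and sas-5 (103). The respiratory chain and ATP synthase had 8 of 49, led by cox-5A and cox-5B (164) and with the ATP synthase genes atp-1, atp-2, atp-3 and atp-5 among them. Germ granule and Argonaute genes had 12 of 75, led by znfx-1 (143) and wago-4 (119). Lower shares were found for chromatin genes (13 of 119, led by efl-1 and lin-53), tRNA synthetases (3 of 31), heat shock genes (5 of 53, led by hsp-110) and the mitochondrial ribosome (6 of 70), and the intervals of the last 3 included 3.44%. The SNAPc and piRNA transcription list (1 of 13, snpc-3.4), the vacuolar ATPase (1 of 21), histones (3 of 81) and ubiquitin genes (13 of 394) also had intervals that included it. Several of these small counts changed by more than 1.5 times in 1 replicate alone. Replicate 1 alone gave 5 of 63 splicing factors (7.94%, 2.63 to 17.6%) and 5 of 49 respiratory chain and ATP synthase genes (10.2%, 3.40 to 22.2%), where replicate 2 alone gave 11 and 7. It gave 7 translation factors and 7 nuclear pore genes, where replicate 2 gave 10 of each. Histones had 6 genes in replicate 1 and 5 in replicate 2, and the vacuolar ATPase 1 and 2. RNA polymerase subunits had 9 and 5.

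Genes of the tissue lists had few peaks. They were 2 of 744 neuronal genes (nlp-4 and the chemoreceptor gene srh-16), 1 of 52 muscle genes (act-2), 2 of 343 hypodermis and cuticle genes (bli-6 and col-40), 3 of 361 intestine genes (clec-2, clec-88 and aspm-1, a spindle protein that the symbol pattern caught) and 1 sperm gene, 0.893% of that list (spe-48). The intervals of the muscle and sperm lists included 3.44%. Of these 9 genes 6 lay at divergent peaks, as nlp-4 did with exos-3. In replicates 1 and 2 alone the counts were 5 and 2 for neuronal, 0 and 2 for muscle, 0 and 2 for hypodermis and cuticle, 1 and 2 for intestine, and 1 in each for sperm. The symbol pattern of the neuronal list did not cover every gene of that kind. Outside it, peaks also lay at unc-2 and at the chemoreceptor-type genes srw-129, srw-35, srw-95, srx-28, srx-7, srt-28, srt-27 and sru-9. The count of 2 of 744 thus holds for that list and not for all neuronal genes.

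**Figure D4:**
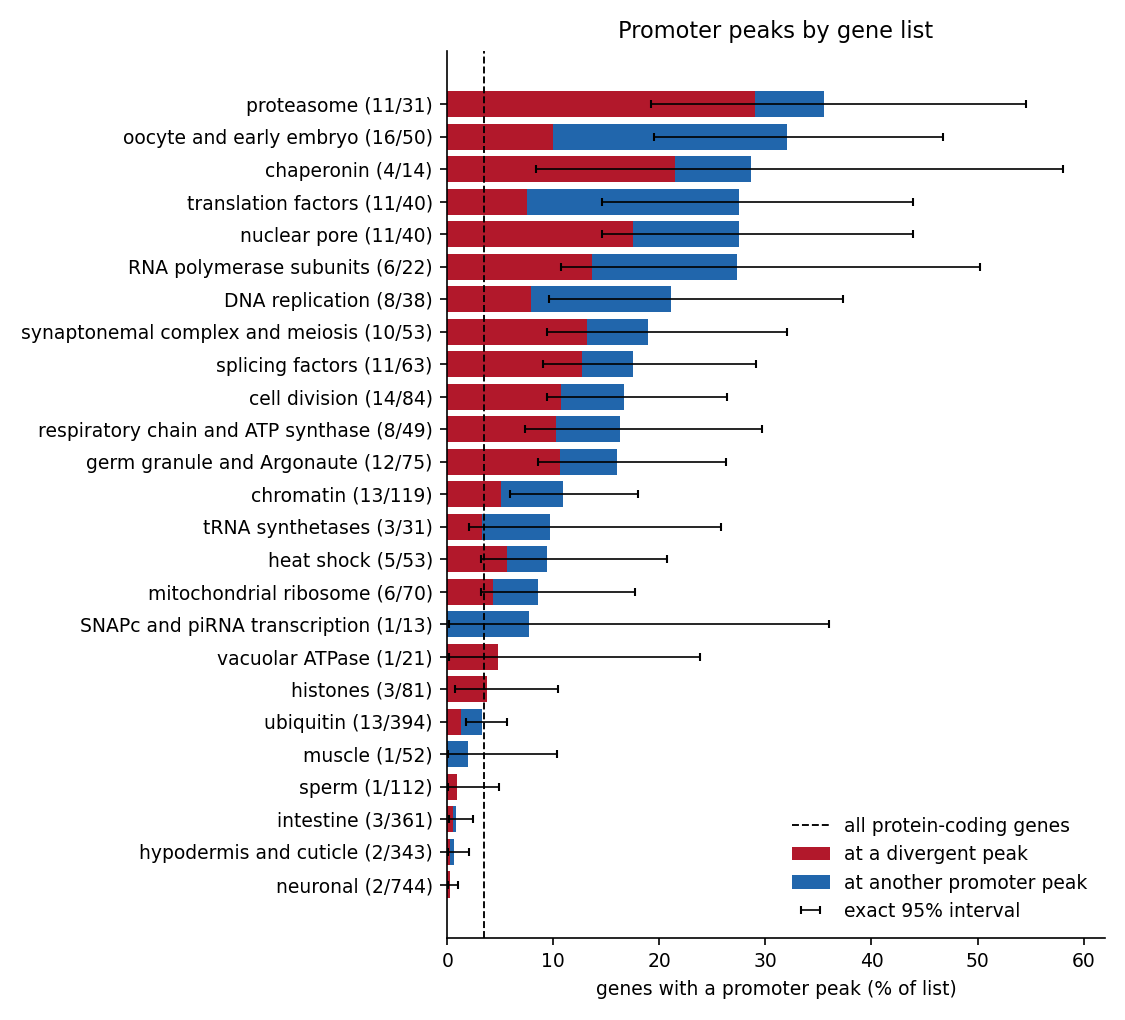
Genes with a promoter peak as a percentage of each of 25 gene lists, split into genes at a divergent peak and at another promoter peak, with exact 95% binomial intervals; the dashed line is the 3.44% of all protein-coding genes. The proteasome (35.5%) and oocyte (32%) lists lie at the top in the reproducible set, and the neuronal, hypodermis, intestine, sperm and muscle lists lie at the bottom, below the line.

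The arrangement of the genes and their kind each went with the share. Among autosomal genes of the 9 housekeeping lists, 28.9% had a divergent start within 500 bp and 54.6% had none within 1000 bp, against 10% and 80.8% of the genes in none of these lists. With a divergent start within 500 bp, 29 of 101 housekeeping genes had a peak (28.7%, 20.1 to 38.6%), 20 of 70 germline and division genes (28.6%, 18.4 to 40.6%), 4 of 77 somatic and sperm genes (5.19%, 1.43 to 12.8%) and 175 of 1522 other genes (11.5%, 9.94 to 13.2%). With no divergent start within 1000 bp, the shares were 26 of 191 (13.6%, 9.09 to 19.3%), 25 of 171 (14.6%, 9.69 to 20.8%), 3 of 1222 (0.245%, 0.0507 to 0.716%) and 256 of 12280 (2.08%, 1.84 to 2.35%). Within each of the 4 sets the genes with a divergent start nearby thus had the higher share, and the housekeeping and germline sets were above the other genes with either arrangement. A gene with a divergent start within 500 bp is also counted for a peak nearer to its neighbour. This raises its share by construction, so the difference between arrangements is not one of binding alone, and the size of this part was not tested. How strongly these genes are transcribed was not measured here, and its part in these shares was not tested.

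The bases around the summits differed from those of the flanks and of starts with no peak, as they did at other kinds of peaks. G+C content in the 101-base windows had a median of 44.6% at divergent peaks and 42.6% at single ones, against 38.6% in windows 1000 bp to either side and 33.7% in windows centred 150 bp upstream of the starts with no peak. The other peaks of the list were G+C-rich too, with medians of 47.5% at peaks with no start, 49.5% at small RNA starts and 45.5% at ribosomal protein genes. Promoter regions at ranks 1501 to 3000 of the pooled list had a median of 38.6%. At the promoter peaks the G+C peak spanned about 100 bp and was flanked by A+T-rich troughs. Of the 522 windows 498 (95.4%) were unique in the genome at each 36-base stretch, so copies elsewhere touched few of these peaks.

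8 groups of words were chosen by hand from those more frequent at these promoters than in their flanks, after the counts at all of them and at the divergent ones separately had been seen. Their shares in the 522 peaks are therefore a description, and so is any difference between divergent and single peaks. They were not simply the leading words: AAACGCGC (5.56 percentage points over the flanks), GAGAAAAA (4.55) and AAGTGCGC (4.12) were left out, while CGCCAGCA and GCGCTCCA were included without being among the 25 leading words. Neither a promoter word nor at least 2 of the far-peak words described below was found in 291 of the 522 windows (55.7%, 51.4 to 60.1%), and both were found in 5. Any of the 8 was present in 77 of 163 divergent windows (47.2%, 39.4 to 55.2%) and 125 of 356 single windows (35.1%, 30.2 to 40.3%). In the flanks the share was 2.64% (1.75 to 3.82%), at starts with no peak 4.72% (4.43 to 5.03%) and at divergent pairs with no peak 11.2% (9.11 to 13.6%). Promoter regions of the pooled list at ranks 1501 to 3000, which had no part in the choice of words, held 1 or more in 45 of 125 divergent windows (36%, 27.6 to 45.1%) and 117 of 497 single windows (23.5%, 19.9 to 27.5%), and regions at ranks 3001 to 6000 in 14.6% (12.5 to 16.9%). The peaks at ribosomal protein genes held them in 18 of 49 windows (36.7%, 23.4 to 51.7%), against 6.43% (4.28 to 9.22%) at small RNA starts and 13.9% (10.6 to 17.6%) at peaks with no start. In the lists of replicates 1 and 2 alone, divergent windows had 43.0% and 46.2% and single windows 29.7% and 32.1%.

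The difference between the arrangements was not stable for single words. GCGAGACC was found in 19 divergent windows (11.7%, 7.17 to 17.6%) and 21 single ones (5.90%, 3.69 to 8.88%), against 0.393% of starts with no peak, among others at lin-53 with nra-2 and at wago-4. In replicate 1 alone the shares were nearly equal, 7 of 128 divergent (5.47%) and 20 of 364 single windows (5.49%), and in replicate 2 alone they were 10.6% and 3.35%. In the pooled regions at ranks 1501 to 3000 they were 5.60% (2.28 to 11.2%) and 3.02% (1.70 to 4.93%). The TACGGTA words were also in 19 divergent windows (11.7%) and in 14 single ones (3.93%, 2.17 to 6.51%), and they lay at 7 of the 24 highest divergent and single peaks named above, among them bmk-1 with coh-3, rec-8 with mex-5 and the pairs of exos-3 and lin-53. Each replicate alone had these words more often at divergent promoters, in 10.9% against 3.02% in replicate 1 and 8.12% against 3.35% in replicate 2. The pooled regions at ranks 1501 to 3000 did not, with 3.20% of divergent (0.879 to 7.99%) and 3.62% of single windows (2.16 to 5.66%). GCGCGAAA was alike in both, at 7.98% of divergent and 9.55% of single windows, and so was AAAGGCGC, at 7.98% and 7.58%. AAAGGCGC was in 13 of the 58 windows at germline and division genes (22.4%, 12.5 to 35.3%) and 5 of the 68 at housekeeping genes (7.35%, 2.43 to 16.3%), with intervals that overlap. Within the windows, the median distance of matches from the summit was 10.5 to 27 bp across the 8 groups. Only the windows were searched, which keeps these distances short by construction. Whether matches lay closer to the summit than evenly placed ones was not tested. Of the known motifs searched, the E2F-type core TTCCCGC was in 28 of the 522 windows (5.36%, 3.59 to 7.66%), against 1.12% of starts with no peak. The core promoter element TATAAA was in 6.70% (4.71 to 9.20%), against 13.5% of those starts, and the GATA factor core TGATAA in 4.60% (2.97 to 6.76%), against 11.9%. The flanks of the same peaks held TATAAA in 7.93% (6.35 to 9.76%) and TGATAA in 7.84% (6.26 to 9.66%), with intervals that overlap those of the peaks. The piRNA upstream motif core CTGTTTCA was in 1 window (0.192%), against 0.797% of starts with no peak, and CACGTG, the E-box, in 2.30% (1.19 to 3.98%), against 1.79%. GCGCGC, which overlaps some of the promoter words, was in 73 windows (14%, 11.1 to 17.3%), against 1.18% of starts with no peak. It was not particular to promoter peaks. Peaks at snRNA or snoRNA starts with no tRNA held it in 14.8% (9.95 to 20.7%) and peaks with no start in 9.32% (6.65 to 12.6%). Peaks at tRNA starts held it in 0.844% (0.102 to 3.01%) and those at ribosomal protein genes in 4.08% (0.498 to 14%). The B box, the internal promoter of tRNA genes, was in 1 of the 522, against 30.8% (25 to 37.1%) of the peaks at tRNA starts. The rule had removed peaks by tRNA starts, so this contrast follows largely from the rule. The flanks held the B box in 0.196% and starts with no peak in 0.0786%. These counts are of letters in a window on either strand and do not show which protein was bound there.

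A smaller kind of promoter peak carried other words, those of peaks far from any start. From the 397 peaks with no start within 500 bp the 10 most frequent words were taken, led by CGGCCGAC and GCGGAACC and several of them overlapping, and 32 of the 522 promoter windows held at least 2 of them (6.13%, 4.23 to 8.54%). The share was 2 of 163 at divergent promoters (1.23%, 0.149 to 4.36%) and 30 of 356 at single ones (8.43%, 5.76 to 11.8%), against 34 of 19082 starts with no peak (0.178%, 0.123 to 0.249%). Peaks that were not used to choose them, those at snRNA or snoRNA starts with no tRNA, held them in 51 of 183 (27.9%, 21.5 to 35%), and peaks at tRNA starts in 3 of 237 (1.27%, 0.262 to 3.65%). The 49 ribosomal protein peaks held none (upper bound 7.25%).

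**Figure D5:**
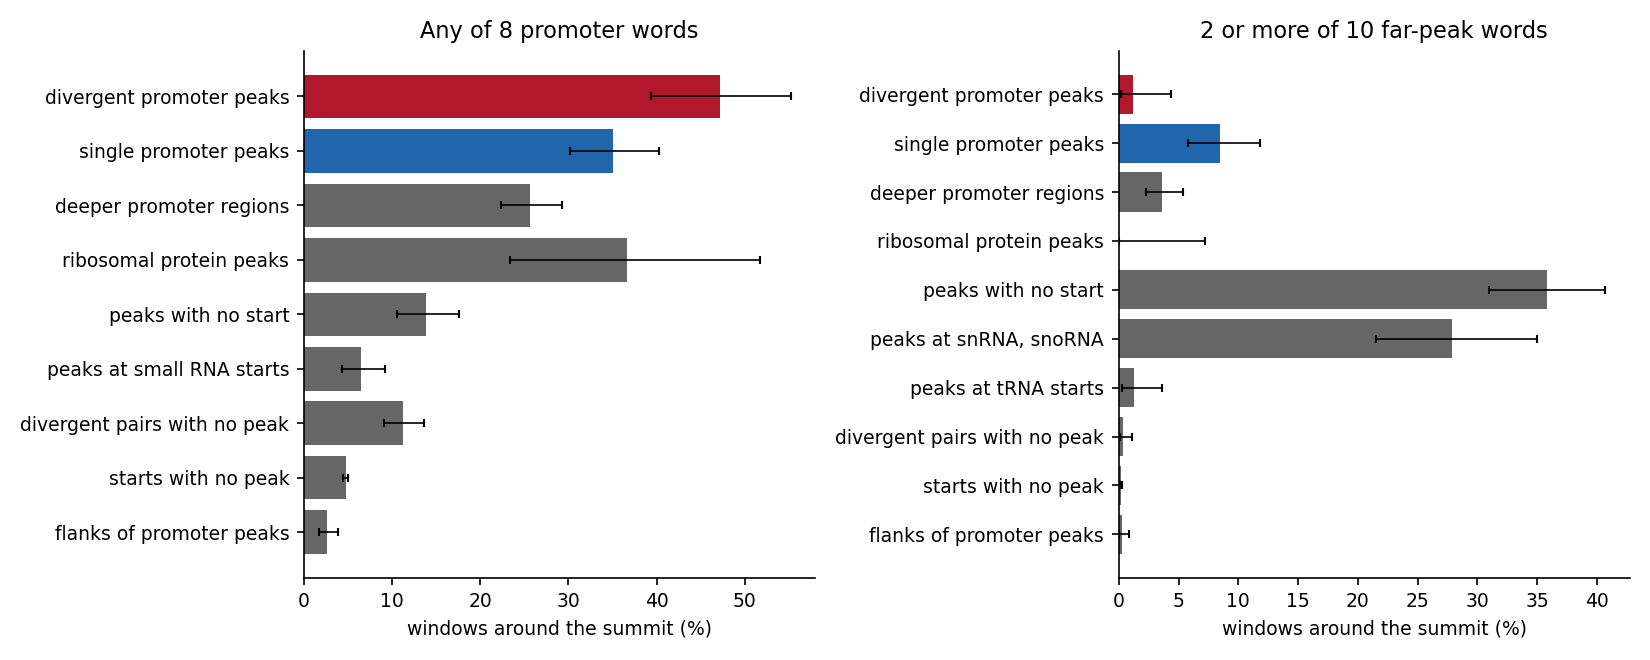
Percentage of 101-base windows with any of the 8 groups of promoter words (left) and with 2 or more of the 10 words of peaks far from starts (right), with exact 95% binomial intervals; deeper promoter regions are those at ranks 1501 to 3000 of the pooled list. Promoter words were in 47.2% of divergent and 35.1% of single promoter peaks and few small RNA peaks, and the far-peak words were in 1.23% and 8.43%, against 27.9% of the peaks at snRNA and snoRNA starts.

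CGGCCGAC and GGTTCCGC, the reverse complement of GCGGAACC, stood at a fixed distance. Both occurred in this order within 60 bp of the summit in 16 promoter peaks, and in 15 of these 8 bases lay between them. The remaining 1, cyp-13A2, had 9, as its sequence above shows. All 42 such peaks with no start and all 7 such peaks at snRNA or snoRNA starts had 8, and no tRNA peak had the pair. The other 15 peaks lay near the starts of srw-129, srw-35, srx-28, srx-7 and srt-28 (chemoreceptor families), clec-2 (C-type lectin), chil-14 (chitinase-like), fbxa-72 (F-box), F54G2.1, Y71G12B.23, ZK39.10, W04G5.7, Y105C5B.11, T12B5.15 and WBGene00021414. Not all were upstream. At srt-28, chil-14, fbxa-72, F54G2.1, Y71G12B.23, ZK39.10, Y105C5B.11, T12B5.15 and WBGene00021414 the summit lay 118 to 456 bp downstream of the start, mostly in an intron.

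The 32 promoter peaks with the far-peak words differed from the other 490 in several measures that the words did not fix. Their median signal was 116 (59.8 to 492), against 75.9, and 9 of the 32 were among the 250 highest peaks (28.1%), against 17 of the 490 (3.47%). Summits lay in introns in 12 of the 32 (37.5%), against 38 of the 490 (7.76%), and the median distance to the nearest start was 339 bp, against 180 bp. Genes with chemoreceptor-type symbols (sr*) were 5 of their 34 genes, against 5 of 656 genes at the other peaks, where such symbols make up 5.86% of all protein-coding genes. Of the 34 genes 2 were in the housekeeping lists (npp-8 and cox-5A) and 1 in the germline lists (syp-3), against 69 and 60 of the 656. Both syp-3 and F39H2.3 are counted on both sides, since the second peak of this pair was among the other 490. Of the 32 windows 24 were unique in the genome, and the windows at tmem-258 and syp-3 held stretches found 44 and 46 times.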

How the data were processed

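The deposited files are peak lists of 2 biological replicates on 2 genome builds (ce11 and ce10, per the labels); 4 ce11 lists were used: 1500 reproducible peaks, 30000 pooled regions, and 29523 and 26195 regions of replicates 1 and 2. The authors made them from sonicated chromatin, per the labels; which aligner, caller and threshold they used is not stated in the labels or headers. The signal column is a score that the authors deposited on a scale not stated, and it served only to rank and describe peaks within a list. Depth per sample is unknown, and intervals (exact Clopper-Pearson, 95%) cover counting error only; neighbouring genes and peaks are not independent. Since both samples form 1 group, there was no test between conditions.

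A summit is the position that the deposited summit column gives within its region, which is the middle in 511 of the 522 peaks. Starts came from Ensembl release 115 of WBcel235, the ce11 assembly, and sequence from the matching RefSeq assembly; all regions ended within its chromosome lengths. Coordinates are 1-based. Of 19973 nuclear protein-coding genes, lists were formed by symbol in 25 groups. Words of 8 bases were counted on both strands in windows of 101 bases, beside flanks 1000 bp away and windows 150 bp upstream of starts with no peak. Genes were named as those at the 12 highest divergent and 12 highest single peaks, up to 4 per list, and at the distance limit; others (the X-linked genes, the genes with the word pair, the remaining proteasome subunits and the tissue genes) were named after their values were seen. The members, the lists and the words were chosen with earlier results of these data known; the joined list sets, the 8 groups of promoter words and the windows shown were chosen by hand after their counts had been seen. Class assignment and word counts were tested on simulated data. Python 3.11.15, pandas 2.3.3 and scipy 1.17.1 were used.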

Additional observations from a re-analysis of the deposited data

How the results depend on the processing

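The promoter share of all peaks, 34.8% as reported, was 19.7% with a distance of 200 bp, 41.4% with 1000 bp, 25.3% among the 750 highest peaks and 30.5% without peaks that have any other noncoding start, and 33.1 to 35% in the replicates alone. The divergent share, 31.2% as reported, was 17.3% with 200 bp, 36.4% with 1000 bp and 21.1% when both starts also had to lie within 500 bp of each other; in the replicates alone it was 25.8 to 30.5%. The number of genes, 688, was 348 with 200 bp and 248 with the 750 highest peaks, and 625 to 692 in the replicates alone. Support in both replicates was 83.9% with the top 3000 regions of each instead of 54.8%. Windows with a promoter word were 50.2% with 100 bp either side, 44.7% among the 750 highest and, in a comparison added after the data were seen, 25.7% in pooled regions at ranks 1501 to 3000, instead of 39.1%. Fewer peaks or a changed distance account by construction for the changes in number; for the others the cause was not tested. With starts of all transcripts, the middle of the region or ribosomal protein genes removed by their start, the promoter and divergent shares stayed within the intervals of the reported values; with unique windows only, added later, the divergent share was 31.5%, and the promoter share and the lists were not run. The housekeeping and germline sets lay above all genes, and the somatic set below, with each distance, the 750 highest peaks, the 4 other planned rules for starts and summits, each replicate alone and, added later, autosomes only or fewer than 2 far-peak words; the somatic set was 1.12% with 1000 bp. The housekeeping set with the vacuolar ATPase was also added later. No paired analysis was possible because both samples belong to 1 group. The unknown depth limits what a missing peak means: a promoter without a peak here may be bound below the threshold of the list.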
